A study of Mus musculus with 12 samples.

Results

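Levels of 6 genes, out of the 21638 in the deposited table, are described here in endothelial cells of the adult mouse brain. They are the plasminogen activators Plat and Plau, the activator receptor Plaur, the activator-inhibiting serpins Serpine2 and Serpini1, and Wdfy1, the neighbour of Serpine2 on chromosome 1. The genes were listed by name, and Serpine2 and Wdfy1 were on the list because earlier results of these data showed them high in the beta-catenin GOF libraries. For that reason their values in that group are given as a description without a test, as are those of all 6 genes in beta-catenin GOF against WT.

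The study compared 4 genotypes with 3 libraries each: WT, Hdac2 ECKO, Ezh2 ECKO and beta-catenin GOF. The last 3 came from mice carrying Hdac2lox/lox, Ezh2lox/lox or Ctnnb1lox/lox alleles together with Cdh5CreERT2, a Cre recombinase that tamoxifen activates and that the Cdh5 promoter places in endothelium. Deletion of Hdac2 (a histone deacetylase) or Ezh2 (a histone H3 methyltransferase), or constitutive activation of beta-catenin, followed 5 doses of tamoxifen at 75 mg/kg, and brains were taken 2 months later. Cortical endothelium was sorted as CD31+ CD41- CD45- cells, and RNA was amplified by the SMART-Seq method and sequenced in paired ends. Whether WT mice received tamoxifen, the ages of the mice, and whether each library came from a separate animal are not given in the sources used here, so p-values measure the spread among these libraries.

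Plasminogen is a circulating proenzyme that tissue-type plasminogen activator (the product of Plat) or urokinase (the product of Plau) cleaves to plasmin, the protease that dissolves fibrin and degrades matrix. Urokinase works at the cell surface bound to its receptor, the product of Plaur. Serpins are suicide inhibitors that trap their protease: Serpine2 encodes protease nexin-1, which inhibits thrombin, urokinase and tissue-type activator, and Serpini1 encodes neuroserpin, an inhibitor of tissue-type activator best known from neurons. In brain, endothelium is a known source of tissue-type activator. Wdfy1 belongs to another system: it encodes a protein with WD repeats and a FYVE domain that binds early endosomes.

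Library totals ranged from 24781070 to 36109975 counts. Levels are in CPM (counts scaled to a library total of 1000000, with totals adjusted by TMM, a scaling for library composition), on which 3 counts corresponded to 0.0792 to 0.118. Endothelial markers (9 of 9 detected) summed to between 6317 and 9052 CPM in every library. Hdac2 averaged 129 ± 30.2 CPM (SD, n = 3) in WT and 96.5 ± 15.2 in Hdac2 ECKO (log2 fold change −0.42, SE 0.24, adjusted p = 0.225 in edgeR). It was as low in beta-catenin GOF, at 96.2 ± 10.1 CPM (log2 fold change −0.43, SE 0.24, adjusted p = 0.884 in edgeR). Hdac2 counts therefore do not set the Hdac2 ECKO group apart. Ezh2 was not lower in the libraries labelled Ezh2 ECKO, at 8.92 ± 3.36 CPM against 6.75 ± 3.52 in WT (log2 fold change 0.40, SE 0.46), so that group is called by its label throughout. Counts per gene do not show which exons were read, so Ctnnb1 (log2 fold change −0.17 in beta-catenin GOF) checks no label. On the first principal component (41.1% of the variance), the second Hdac2 ECKO and second labelled Ezh2 ECKO libraries, at 6.3 and −20.9, stood apart from the first and the third of both groups, at 40.3 to 63.6. WT libraries were at −55.5 to −18.1, so these 2 lay nearer WT than the rest of their groups. They were picked after these values were seen. Leaving out both raised the genes passing in labelled Ezh2 ECKO against WT from 129 to 2802 by edgeR. Nothing is therefore read below from passes without them. Markers of pericytes and smooth muscle (10 genes) summed to 57.2 to 117 CPM in WT, 117 to 311 in Hdac2 ECKO, 52.1 to 70.6 in the labelled Ezh2 ECKO group and 106 to 370 in beta-catenin GOF. Blood markers (7 genes, mostly globins) summed to 36142 to 61398 CPM in WT, 406 to 21711 in Hdac2 ECKO, 2531 to 6701 in the labelled Ezh2 ECKO group and 527 to 35407 in beta-catenin GOF. Their part in the results below was not tested.

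Of the 6 genes, 5 passed a filter of a mean count of at least 10, and Plau did not. Against WT, 1 of these 5 passed the test in Hdac2 ECKO, where 9.2% of the 12577 genes tested passed (edgeR's quasi-likelihood test, Benjamini-Hochberg adjusted over all of them, threshold 0.05). None of the 5 passed in the labelled Ezh2 ECKO libraries, where 1.03% of genes did. There, 3 of the 5 had an unadjusted p under 0.05, beside 24.7% of all genes, and DESeq2 passed 1, beside 1271 of all genes. In beta-catenin GOF against WT, 0.0% of genes passed by edgeR and 6.07% had an unadjusted p under 0.05. In the mutants against each other, none of the members tested passed, and none had an unadjusted p under 0.05 by edgeR or passed by DESeq2 (0 of 5 in Hdac2 ECKO against labelled Ezh2 ECKO, and 0 of 3 in beta-catenin GOF against either). The shares of all genes passing in those comparisons were 0.0239%, 0.0716% and 0.0636%. All comparisons with WT share the same 3 WT libraries.

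**Figure D1:**
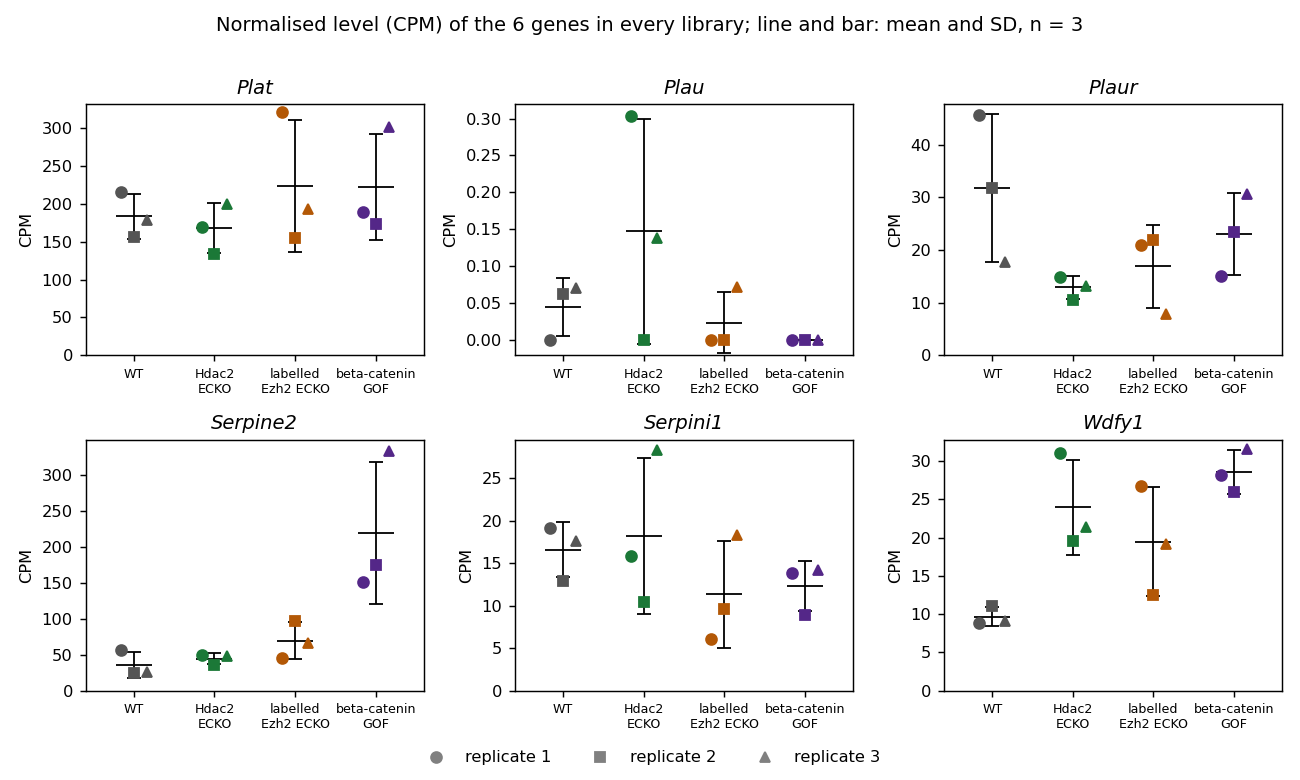
Level of each gene in CPM (vertical axis, linear) in the 12 libraries by genotype (horizontal axis), with points for libraries, marker shape for the replicate number and line and bar for the mean and SD of 3 libraries. Serpine2 in the 3 beta-catenin GOF libraries (151 to 333 CPM) and Wdfy1 in all 9 mutant libraries (12.4 CPM and above) lie over the WT range.

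Plat, the tissue-type activator gene, was the most abundant of the 6 genes per unit of transcript length in every group (ENSMUSG00000031538.6, mm10 chromosome 8, 22757727 to 22782844, plus strand). The WT libraries held 216, 156 and 179 CPM, those of Hdac2 ECKO 170, 134 and 200, those labelled Ezh2 ECKO 322, 155 and 193 and those of beta-catenin GOF 190, 173 and 303. The 4 groups overlapped throughout, with 1 high library in each of the last 2 groups. The log2 fold change against WT was −0.13 (SE 0.30, adjusted p = 0.791 in edgeR) in Hdac2 ECKO and 0.28 (SE 0.30, adjusted p = 0.589) in labelled Ezh2 ECKO. In beta-catenin GOF it was 0.27 (SE 0.30), and −0.02 without the third library of that group. The difference between beta-catenin GOF and Hdac2 ECKO, 0.40 (SE 0.30, adjusted p = 0.448 in edgeR), did not pass either. In these bulk libraries fewer cells of a type and less RNA per cell cannot be told apart.

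Plau, the urokinase gene (ENSMUSG00000021822.3, mm10 chromosome 14, 20836660 to 20843385, plus strand), was at or near 0 in all libraries. WT libraries had 0, 2 and 2 counts, those of Hdac2 ECKO 8, 0 and 4, those labelled Ezh2 ECKO 0, 0 and 2, and each beta-catenin GOF library 0. A count of 0 allows up to 3 counts of the library, and these values were too low for a fold change. Differences in Plau were therefore not detectable at this depth.

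Plaur, the urokinase receptor gene (ENSMUSG00000046223.10, mm10 chromosome 7, 24462484 to 24475968, plus strand), was read in every library although its activator was nearly unread. Its level was 45.8, 31.8 and 17.6 CPM in WT and 15.0, 10.6 and 13.1 in Hdac2 ECKO, so that all 3 Hdac2 ECKO libraries lay under the lowest WT library. The labelled Ezh2 ECKO libraries were at 20.9, 21.9 and 7.83 CPM and the beta-catenin GOF libraries at 15.0, 23.5 and 30.7, both groups overlapping WT.

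The fold difference of Plaur in Hdac2 ECKO against WT was 2.46 (log2 fold change −1.30, SE 0.42), and it missed the threshold (adjusted p = 0.058 in edgeR). Ranges that lay apart in this comparison were found for 37.8% of all genes tested, and for 2 of the 5 members. Plaur passed in 6 of 18 other settings, with DESeq2 (adjusted p = 0.0174) and on leaving out the third WT library (−1.59, adjusted p = 0.0291 in edgeR) among them, and its log2 fold change was −0.75 (adjusted p = 0.238 in edgeR) once a trend with gene length was removed. Plaur is a short gene, with 22.9% of the genes tested shorter. Plaur showed −0.91 on the log2 scale in labelled Ezh2 ECKO (SE 0.41, adjusted p = 0.189 in edgeR) and −0.46 in beta-catenin GOF (SE 0.41). Beta-catenin GOF lay above Hdac2 ECKO in every library by a narrow margin, with a log2 difference of 0.84 (SE 0.41, adjusted p = 0.256 in edgeR). Ranges lay apart there for 32.0% of all genes and for 2 of the 5 members, Plaur and Serpine2. The latter was listed for its level in beta-catenin GOF.

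Serpine2, the protease nexin-1 gene (ENSMUSG00000026249.10, mm10 chromosome 1, 79794197 to 79861180, minus strand), had the widest differences of the members. The WT libraries held 56.6, 25.0 and 25.3 CPM, those of Hdac2 ECKO 49.7, 35.3 and 48.7, those labelled Ezh2 ECKO 45.8, 96.7 and 66.4 and those of beta-catenin GOF 151, 174 and 333. The first WT library was over 2 times as high as the other 2 WT libraries, and the Hdac2 ECKO libraries lay inside the WT range. The 3 beta-catenin GOF libraries lay above all 9 others.

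The values that put Serpine2 on the list were 219 ± 99.3 CPM (SD, n = 3) in beta-catenin GOF against 35.6 ± 18.2 in WT, a fold of 6.16 (log2 fold change 2.62, SE 0.40). Over other settings the log2 fold change ran from 2.19, without the third beta-catenin GOF library, to 3.13, without the first WT library. The log2 difference of beta-catenin GOF was 2.30 (SE 0.40) against Hdac2 ECKO and 1.66 (SE 0.39) against labelled Ezh2 ECKO, where 16.6% of all genes and 1 of the 5 members had ranges apart. Ranges lay apart from WT in beta-catenin GOF for 12.7% of all genes, and 2 of the 5 members, the pair on chromosome 1, were among them. Because that pair was listed for its level in beta-catenin GOF, nothing is read from either share.

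Comparisons without the beta-catenin GOF libraries showed smaller values for Serpine2. In labelled Ezh2 ECKO against WT the log2 fold change was 0.97 (SE 0.38, adjusted p = 0.143 in edgeR), with levels of 69.6 ± 25.6 and 35.6 ± 18.2 CPM (SD, n = 3 each). It passed in 2 of 18 other settings, without a filter (0.96, adjusted p = 0.0284 in edgeR) and with sample quality weights in limma (0.93, adjusted p = 0.0453). In Hdac2 ECKO the log2 fold change was 0.32 (SE 0.38, adjusted p = 0.579 in edgeR), and −0.14 with the trend with gene length removed. It was 0.82 without the first WT library (adjusted p = 0.22 in edgeR) and 0.64 with sample quality weights in limma (adjusted p = 0.0962). Serpine2 is a long gene, with 83.3% of the genes tested shorter. Hdac2 ECKO and labelled Ezh2 ECKO differed by −0.64 (SE 0.38, adjusted p = 0.662 in edgeR). Between those groups 13.2% of all genes and none of the 5 members had ranges apart.

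The sum of pericyte and smooth muscle markers was 370 CPM in the first beta-catenin GOF library, the lowest of that group for Serpine2, and 106 CPM in both of the others, and the third WT library had 117 CPM. In Hdac2 ECKO it reached 311 CPM where Serpine2 was at 49.7 CPM. Of these markers, 4 of 9 tested rose in Hdac2 ECKO by edgeR, beside 3.82% of all genes (9 above 0, median log2 fold change 2.52 beside 0.10 over all genes). In beta-catenin GOF, where no gene of any kind passed, 8 were above 0 and 1 below, with a median of 1.31 beside 0.01 over all genes. Their part in the Serpine2 values was not tested.

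Of the members past the count filter, Serpine2 had the highest and Plaur the lowest log2 fold change against WT. The 250 bases upstream of their start sites are shown for that reason. They are RefSeq sequences (build GRCm38.p6, the assembly of mm10), read 5′ to 3′ on the gene's strand, chr1:79858666-79858915 on the minus strand for Serpine2 and chr7:24462233-24462482 on the plus strand for Plaur. Capitals mark GC boxes (GGGCGG) and AP-1 sites (TGACTCA), each searched on both strands.
Serpine2: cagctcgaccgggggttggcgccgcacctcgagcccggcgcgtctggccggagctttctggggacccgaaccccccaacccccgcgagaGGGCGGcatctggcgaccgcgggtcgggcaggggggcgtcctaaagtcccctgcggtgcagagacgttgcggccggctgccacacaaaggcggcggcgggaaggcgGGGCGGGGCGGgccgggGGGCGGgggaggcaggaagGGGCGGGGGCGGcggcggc
Plaur: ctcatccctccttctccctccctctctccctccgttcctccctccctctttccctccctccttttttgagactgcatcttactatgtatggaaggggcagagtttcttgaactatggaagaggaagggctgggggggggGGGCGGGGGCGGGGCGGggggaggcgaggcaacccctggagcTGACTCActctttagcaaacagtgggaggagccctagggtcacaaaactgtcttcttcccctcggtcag
The Serpine2 window holds 6 GC boxes, some of them overlapping, and has a GC content of 78.8%, against a median of 52.4% over all windows of that length. The Plaur window holds 3 GC boxes and 1 AP-1 site, with a GC content of 59.6%. GC boxes stand in 32.7% of the 32851 windows in the table and the AP-1 site in 4.5%. Neither window holds a TATA box (TATAAA, in 12.4% of windows) or the TCF/LEF core, CTTTG followed by 2 bases that are each A or T (in 14.8% of windows), the letters that beta-catenin's DNA-binding partners are known to read. This says only that these letters are not in these windows. The RefSeq start of Serpine2 lies inside the gene's span in the deposited table, so the table's start of the gene lies further upstream. Windows were matched for 3 of the 6 members, the other being Serpini1, which holds none of these motifs.

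Serpini1, the neuroserpin gene (ENSMUSG00000027834.15, mm10 chromosome 3, 75557547 to 75643495, plus strand), was low in every group. The WT libraries held 19.2, 12.9 and 17.6 CPM, those of Hdac2 ECKO 15.8, 10.4 and 28.4, those labelled Ezh2 ECKO 6.03, 9.60 and 18.3 and those of beta-catenin GOF 13.9, 8.92 and 14.2. All groups overlapped. The log2 fold change against WT was 0.13 (SE 0.42, adjusted p = 0.849 in edgeR) in Hdac2 ECKO, −0.55 (SE 0.42, adjusted p = 0.435) in labelled Ezh2 ECKO and −0.42 (SE 0.42) in beta-catenin GOF. The sign in Hdac2 ECKO turned on leaving out the third library of the group (−0.36). Neuron markers were low except Stmn2, which ranged from 59.8 to 422 CPM, and the part of neuronal RNA in the Serpini1 counts was not tested.

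Levels of different genes were compared per kilobase of the gene length in the table (CPM per kb). In WT the order was Plat (29.5 ± 4.80, SD, n = 3), Plaur (12.1 ± 5.38), Serpine2 (4.30 ± 2.19), Serpini1 (2.27 ± 0.45), Wdfy1 (1.49 ± 0.19) and Plau (0.019 ± 0.016). Plaur and Serpine2 overlapped there, and the other neighbours in that order did not. In beta-catenin GOF, Plat (35.6 ± 11.3) and Serpine2 (26.5 ± 12.0) overlapped at the top, followed by Plaur (8.81 ± 3.00), Wdfy1 (4.40 ± 0.44) and Serpini1 (1.69 ± 0.41). In Hdac2 ECKO and in labelled Ezh2 ECKO, Plat lay apart at the top (26.9 and 35.8 CPM per kb), and the ranges of Serpine2, Plaur, Wdfy1 and Serpini1, in that order, overlapped from each to the next.

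The ratio of Serpine2 to Plat sets an inhibitor against its protease within each library, on the CPM per kb scale. The WT libraries gave 0.198, 0.120 and 0.106, those of Hdac2 ECKO 0.221, 0.198 and 0.183, those labelled Ezh2 ECKO 0.107, 0.469 and 0.258 and those of beta-catenin GOF 0.597, 0.757 and 0.830. The beta-catenin GOF libraries had the 3 highest ratios of the 12. This restates the Serpine2 values on which the list rests and has no test. It is a ratio of RNA, and says nothing of active protein.

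Wdfy1 (ENSMUSG00000073643.11, mm10 chromosome 1, 79702262 to 79776143, minus strand) lies 18053 bases from Serpine2 and on the same strand. The WT libraries held 8.78, 11.1 and 9.08 CPM, those of Hdac2 ECKO 31.0, 19.5 and 21.4, those labelled Ezh2 ECKO 26.7, 12.4 and 19.2 and those of beta-catenin GOF 28.1, 25.9 and 31.6. All 9 mutant libraries were above all 3 WT libraries, as for 1.99% of all genes tested. Because the choice of Wdfy1 used the same WT libraries, nothing is read from that share.

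Wdfy1 was the member that passed against WT in Hdac2 ECKO. It rose 2.49-fold (log2 fold change 1.31, SE 0.31, adjusted p = 0.0338 in edgeR), and 3.82% of all genes were called higher there. The comparison shares its WT libraries with the one for which the gene was listed, so its p is not free of that choice. The call held in 14 of 18 other settings, including removal of the trend with gene length (1.04). Another of these left out both libraries that stand apart, which were picked after their values were seen (1.44, adjusted p = 0.00263 in edgeR). It was lost on leaving out the first or the second WT library (adjusted p = 0.13 and 0.0977) or the first or the third Hdac2 ECKO library (0.16 and 0.13), where the log2 fold change stayed between 1.07 and 1.42.

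Wdfy1 in labelled Ezh2 ECKO lay 1.01 above WT on the log2 scale (SE 0.31, adjusted p = 0.0819 in edgeR), which did not pass. This comparison too shares its WT libraries with the one for which the gene was listed. Its ranges lay apart from WT there, as for 22.0% of all genes and for 1 of the 5 members. Wdfy1 passed without the second library of that group, one of the libraries that stand apart (1.25, adjusted p = 0.0136 in edgeR), with DESeq2 (0.99, adjusted p = 0.031) and with sample quality weights. In those settings 2328, 1271 and 3743 of all genes passed, beside 129 in the reported one, so nothing is read from these passes. In beta-catenin GOF the log2 fold change was 1.57 (SE 0.31), a fold of 2.96, and over the libraries left out 1 at a time it ran from 1.49 to 1.68. Hdac2 ECKO and labelled Ezh2 ECKO, whose comparison uses neither the WT nor the beta-catenin GOF libraries, differed by 0.30 (SE 0.30, adjusted p = 0.794 in edgeR). The log2 difference of beta-catenin GOF was 0.25 (SE 0.30) against Hdac2 ECKO and 0.55 (SE 0.30) against labelled Ezh2 ECKO, with overlapping ranges in both.

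**Figure D2:**
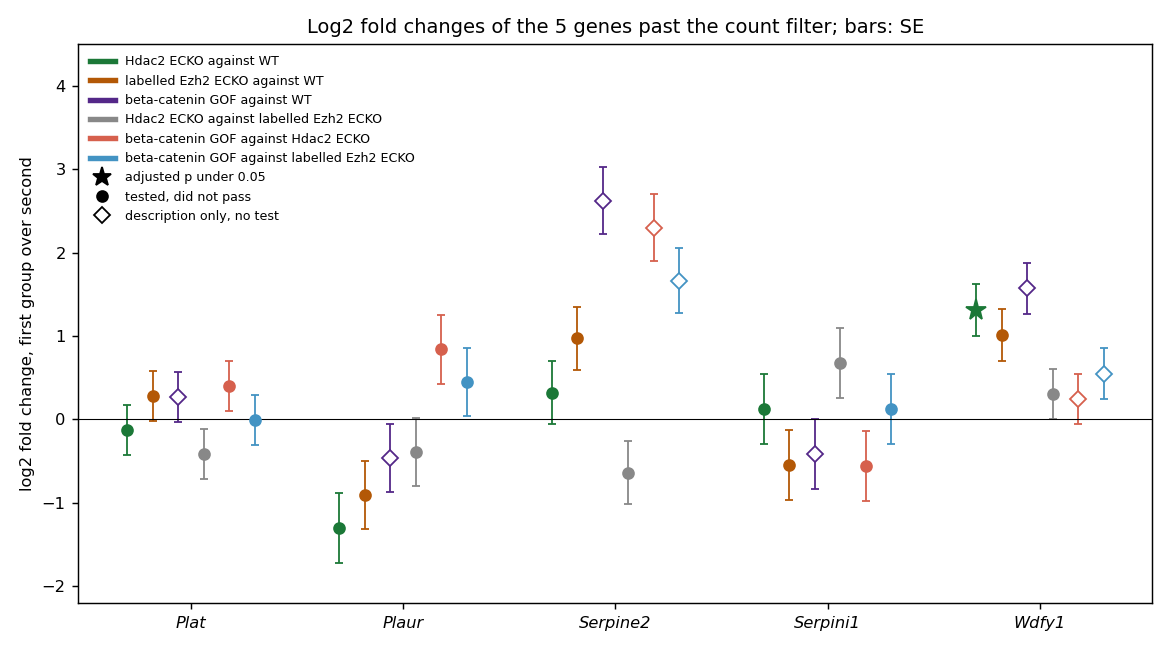
Log2 fold change (vertical axis) with SE bars for the 5 genes past the count filter (horizontal axis) in 6 comparisons, shown by colour. The star is Wdfy1 in Hdac2 ECKO against WT (1.31), filled circles are tested values that did not pass, and open diamonds are values described without a test, with Serpine2 in beta-catenin GOF against WT at 2.62.

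The neighbours Serpine2 and Wdfy1 were compared library by library. In beta-catenin GOF both were high in every library. In Hdac2 ECKO, Wdfy1 lay above WT while Serpine2 lay inside the WT range, above every WT library but the first. Within the libraries labelled Ezh2 ECKO their order was opposite: the second library had the group's highest Serpine2 (96.7 CPM) and its lowest Wdfy1 (12.4 CPM), and the first had the lowest Serpine2 (45.8 CPM) and the highest Wdfy1 (26.7 CPM). Over the 12 libraries, which share their genotype groups, Pearson's r of log2(CPM + 1) was 0.56 for this pair. The value is a description, since both genes were listed for being high in the beta-catenin GOF libraries, which are among the 12.

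**Figure D3:**
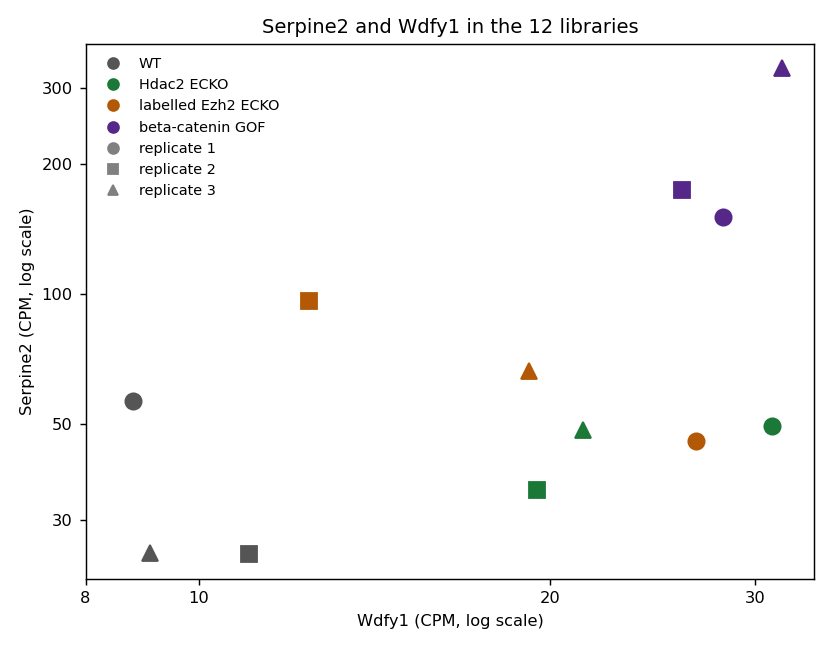
Serpine2 against Wdfy1 in CPM, both axes logarithmic, with 1 point for each of the 12 libraries, coloured by genotype and shaped by replicate number. The beta-catenin GOF libraries stand at the top right (Serpine2 151 to 333 CPM), and the Hdac2 ECKO libraries lie to the right of WT at Serpine2 levels within the WT range (35.3 to 49.7 CPM).

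Around Serpine2, 8 other genes in the table lie within 1 Mb, and 6 passed the count filter. None of the 6 passed the test in any of the 6 comparisons by edgeR with all libraries. In Hdac2 ECKO against WT, 2 of them had an unadjusted p under 0.05, a share near the 33.1% over all genes. DESeq2 passed 1 of them there, beside 2477 of all genes. Against WT in the other mutants none had an unadjusted p under 0.05.

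Mrpl44, a mitochondrial ribosomal protein gene, lies between Wdfy1 and Serpine2, 12.8 kb from the latter, and starts head to head with Wdfy1. The spans of Mrpl44 and Wdfy1 overlap by 126 bases on opposite strands, and whether counting used strand is not given in the sources used here. Mrpl44 was at 48.8, 52.7 and 38.7 CPM in WT and 16.7, 35.8 and 22.5 in Hdac2 ECKO, lower in every library, where Wdfy1 was higher in every library (Mrpl44 log2 fold change −0.90, SE 0.38, adjusted p = 0.119 in edgeR). It passed in both Hdac2 ECKO (−1.25, adjusted p = 0.0181 in edgeR) and labelled Ezh2 ECKO (−1.23, adjusted p = 0.0238) once the second libraries of the 2 groups, which stand apart, were left out. In beta-catenin GOF it was at 23.1, 41.8 and 41.2 CPM (log2 fold change −0.40, SE 0.38, adjusted p = 0.936 in edgeR).

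Ap1s3, an adaptor complex subunit gene on the far side of Wdfy1 (122 kb from Serpine2), was near the floor. It was at 0.416, 0.0633 and 0.142 CPM in WT and 0.819, 1.95 and 0.697 in beta-catenin GOF, with a fitted log2 fold change of 2.46 (SE 1.37, adjusted p = 0.884 in edgeR). It passed the count filter through the beta-catenin GOF libraries, so nothing is read from its ranges there, which lay apart from WT as for 12.7% of all genes. Cul3, a ubiquitin ligase scaffold gene, showed −0.15 (SE 0.26, adjusted p = 0.962 in edgeR) in the same comparison. Dock10, a guanine exchange factor gene 640 kb away, was at 0, 0 and 0.641 CPM in WT and 6.36, 0.587 and 2.43 in Hdac2 ECKO (adjusted p = 0.0833 in edgeR). Dock10 passed without the third WT library (log2 fold change 9.56, SE 1.97, adjusted p = 0.0202 in edgeR). That was the only WT library with a Dock10 count above 0, so nothing is read from that pass. Without both libraries that stand apart Dock10 passed (adjusted p = 0.0424 in edgeR), and Cul3 passed too (0.56, adjusted p = 0.0405).

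**Figure D4:**
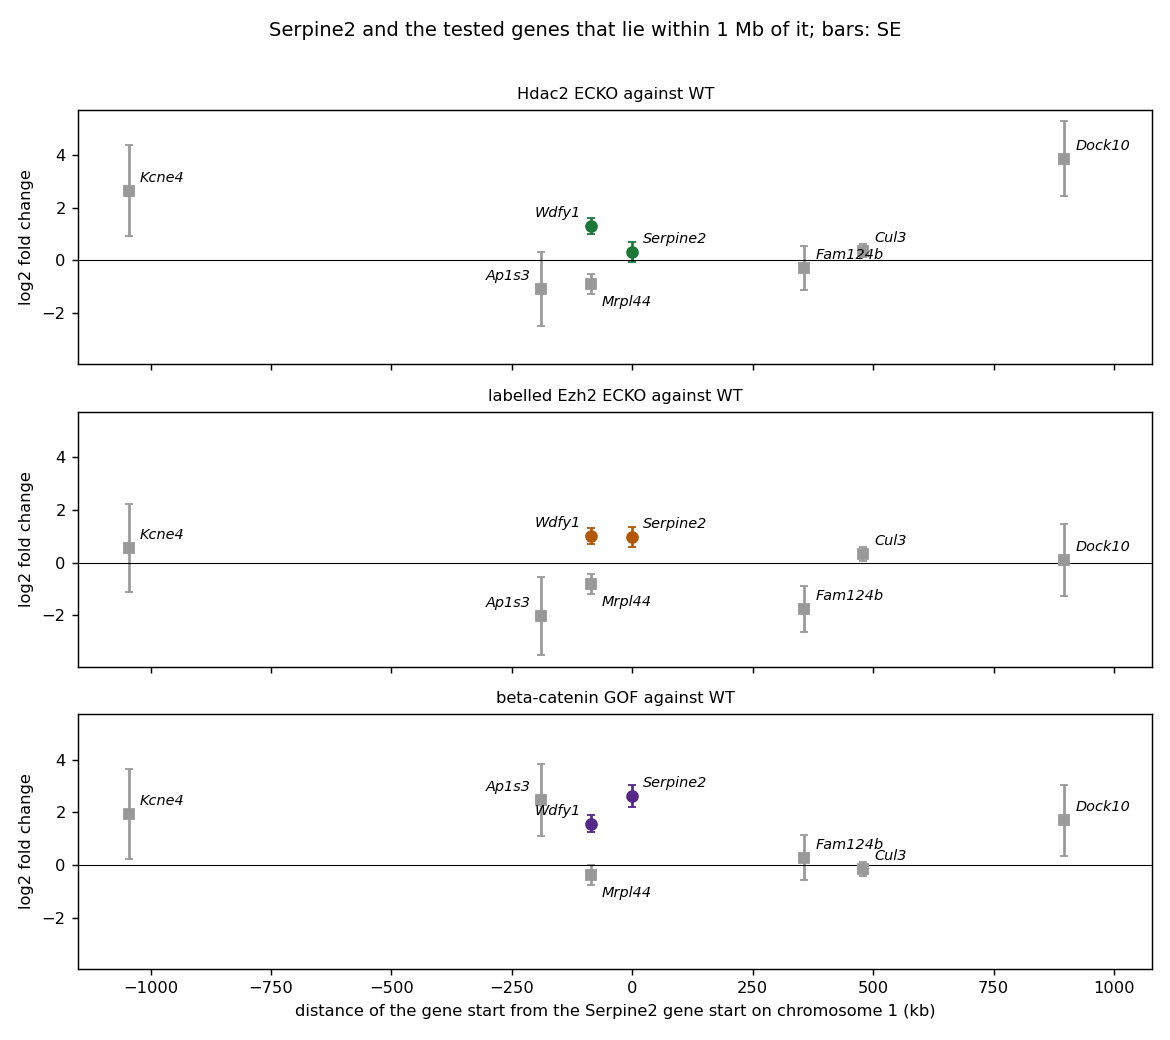
Log2 fold change against WT (vertical axis, SE bars) of Serpine2, Wdfy1 and the 6 tested neighbours by distance of the gene start from that of Serpine2 (horizontal axis, kb), with 1 panel for each mutant group. Mrpl44, beside Wdfy1, lies below 0 in all 3 panels (−0.90 in Hdac2 ECKO) where Wdfy1 lies above 0 (1.31 in Hdac2 ECKO).

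The other genes of plasminogen activation were read from a list of 42, of which 22 passed the count filter, and the other 20 had at most 74 counts (Pdgfc) in any library. In Hdac2 ECKO against WT, 2 of the 22 fell and none rose by edgeR, a share near the 9.2% of all genes that passed there, so nothing is read from it about the list (10 above 0 and 12 below, median log2 fold change −0.21, beside 0.10 over all genes). In labelled Ezh2 ECKO none passed by edgeR and 8 of the 22 had an unadjusted p under 0.05 (24.7% of all genes). DESeq2 passed 6 there, beside 1271 of all genes (9 above 0 and 13 below, median −0.16 beside 0.05). In beta-catenin GOF none passed by edgeR, 2 of the 22 had an unadjusted p under 0.05 (6.07% of all genes) and DESeq2 passed 1 (8 above 0 and 14 below, median −0.18 beside 0.01). None passed between the mutant groups by edgeR, with 3 to 7 genes at an unadjusted p under 0.05 (8.19% to 21.1% of all genes), and DESeq2 passed up to 3.

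Plasminogen itself and its contact-system activators were hardly read. Plg reached at most 8 counts in any library, F12 and F11 at most 4, and Klkb1, the plasma kallikrein gene and the only one of the 4 past the filter, at most 2.01 CPM. Among the other inhibitors, 4 of 10 were tested and none passed by edgeR in any comparison with WT. Serpinf2, the plasmin inhibitor gene, had 0 counts in all 12 libraries, which allows up to 0.0792 to 0.118 CPM. Serpinb6a, a serpin gene of the intracellular clade, was the most abundant of them at 265, 273 and 276 CPM in WT and 138, 193 and 173 in Hdac2 ECKO. Its ranges lay apart there (log2 fold change −0.69, SE 0.22, adjusted p = 0.0562 in edgeR), and beta-catenin GOF overlapped WT (−0.12, adjusted p = 0.965).

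Of the receptors, cofactors and clearance genes, 15 of 19 were tested, and both genes of the list that fell in Hdac2 ECKO belong here. Anxa2 encodes annexin A2, a cell-surface assembly site for plasminogen and its tissue-type activator. It was at 493, 482 and 447 CPM in WT and 127, 240 and 155 in Hdac2 ECKO, a fall by 1.45 on the log2 scale (SE 0.35, adjusted p = 0.0342 in edgeR). Its partner S100a10 showed −0.49 (SE 0.33, adjusted p = 0.319 in edgeR). Eno1, the glycolytic enzyme enolase 1, also binds plasminogen at the cell surface. It was at 336, 387 and 168 CPM in WT and 46.6, 151 and 50.3 in Hdac2 ECKO, a fall by 1.84 (SE 0.52, adjusted p = 0.0428 in edgeR), and near-identical copies of this gene make its count uncertain. Both falls were lost on leaving out the first or the second WT library or the first or the third Hdac2 ECKO library (edgeR adjusted p from 0.0977 to 0.181 for the 2 genes). That of Eno1 was also lost on scaling by library size alone (adjusted p = 0.0511) and with the length trend removed (adjusted p = 0.0531). Without both libraries that stand apart, 6 of the list passed in Hdac2 ECKO and 6 in labelled Ezh2 ECKO, with Anxa2, Eno1, Thbd and Lrpap1 among them in both. In labelled Ezh2 ECKO 2802 of all genes passed in that setting, beside 129 with all libraries, so nothing is read from these passes. Eno1 in labelled Ezh2 ECKO showed −2.03 (SE 0.52, adjusted p = 0.0642 in edgeR).

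Thbd, the thrombomodulin gene, which turns thrombin towards protein C, was at 94.8, 101 and 149 CPM in WT and 244, 202 and 250 in labelled Ezh2 ECKO. The ranges lay apart without passing (log2 fold change 1.01, SE 0.26, adjusted p = 0.0627 in edgeR), and in beta-catenin GOF it was at 119, 97.5 and 90.8 CPM. Lrp8, a receptor gene of the family that clears protease and serpin complexes, had ranges above WT in Hdac2 ECKO (log2 fold change 0.57, adjusted p = 0.135 in edgeR) and in labelled Ezh2 ECKO (0.83, adjusted p = 0.0849). Lrp1, the main clearance receptor of that family, did not exceed 2.39 CPM. Vtn, the vitronectin gene, which pericytes are known to express, was higher in all 3 beta-catenin GOF libraries than in WT (0.85, SE 0.32, adjusted p = 0.748 in edgeR). The same held in Hdac2 ECKO (0.64, SE 0.32, adjusted p = 0.174 in edgeR). Ranges lay apart from WT for 12.7% and 37.8% of all genes in these groups, whose pericyte marker sums are given above.

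F2r, the gene of the thrombin receptor PAR1 and so of a target of the protease that Serpine2 inhibits, had the lowest p of the list in beta-catenin GOF. WT libraries held 11.0, 6.46 and 16.5 CPM, those of Hdac2 ECKO 3.48, 2.42 and 7.77, those labelled Ezh2 ECKO 13.6, 12.8 and 21.6 and those of beta-catenin GOF 3.14, 1.16 and 0.929. The beta-catenin GOF libraries lay under all WT and all labelled Ezh2 ECKO libraries. The log2 fold change was −2.71 against WT (SE 0.56, adjusted p = 0.35 in edgeR) and −3.20 against labelled Ezh2 ECKO (SE 0.57, adjusted p = 0.051), and neither passed. Without the second labelled Ezh2 ECKO library the latter passed (−3.34, adjusted p = 0.0261 in edgeR).

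**Figure D5:**
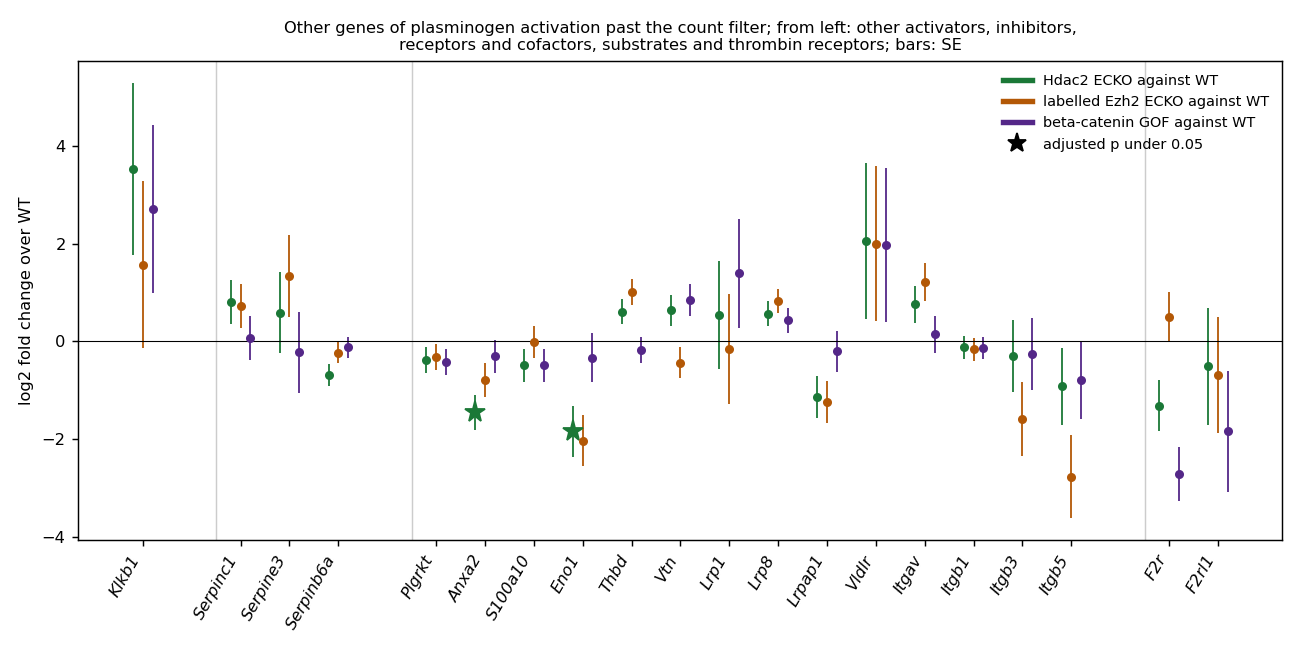
Log2 fold change against WT (vertical axis, SE bars) of 20 listed genes past the count filter (horizontal axis, grouped by role between grey lines), coloured by mutant group. Stars mark the genes that passed, Anxa2 (−1.45) and Eno1 (−1.84) in Hdac2 ECKO, and F2r in beta-catenin GOF lies at −2.71.

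Genes known to respond to beta-catenin (15 listed, 13 tested) gave the background to the Serpine2 values. In beta-catenin GOF against WT, 10 were above 0 and 3 below (median log2 fold change 0.42, beside 0.01 over all genes), none passed by edgeR, 4 had an unadjusted p under 0.05 (6.07% of all genes) and DESeq2 passed 1. In Hdac2 ECKO 3 of the 13 rose by edgeR, beside 3.82% of all genes, with 11 above 0 and 2 below (median 0.88 beside 0.10), while Serpine2 showed 0.32 there. The count was 0 with the length trend removed, 1 under median-ratio scaling, 0 without the first or the second WT or the first or the third Hdac2 ECKO library, and 6 without both libraries that stand apart. In labelled Ezh2 ECKO none passed by edgeR, 5 had an unadjusted p under 0.05 (24.7% of all genes) and the median was 0.43. DESeq2 passed 0 there, beside 1271 of all genes. Without the second library of that group 4 passed by edgeR, in a setting where 2328 of all genes did, beside 129 with all libraries.

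The genes whose pattern was most like that of a member were ranked by Pearson's r of log2(CPM + 1) over the 12 libraries, as a description. For Serpine2 the closest was Gng12, a G protein gamma subunit gene (r = 0.91), at 107 ± 10.2 CPM in WT, 103 ± 9.14 in Hdac2 ECKO, 114 ± 13.1 in labelled Ezh2 ECKO, with beta-catenin GOF at 203 ± 39.3 (SD, n = 3 each). Next came Gm12166 (r = 0.86) and Eda2r, an ectodysplasin receptor gene (r = 0.84), which was at 0 CPM in WT and 1.69 ± 0.99 in beta-catenin GOF. Eda2r averaged 0.0592 CPM in Hdac2 ECKO and 0.0587 in labelled Ezh2 ECKO. It passed the count filter through the beta-catenin GOF libraries, for which Serpine2 was listed, so nothing is read from its likeness. For Wdfy1 the closest were Asap3, Naa16 and Tmem87a (r = 0.87 each). Tmem87a was at 15.4 ± 6.10 CPM in WT and 38.8 ± 9.04 in beta-catenin GOF, with the other mutants at 28.4 ± 3.82 (Hdac2 ECKO) and 31.6 ± 13.2 (labelled Ezh2 ECKO). For Plat the closest were Spc24 (r = 0.89) and Cdca3 (r = 0.83), both under 1 CPM on average in every group, and for Serpini1 they were Thap1 (r = 0.84) and Tigar (r = 0.83).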

How the data were processed

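RNA of sorted brain endothelium was measured in 12 libraries, 3 per genotype. The authors' deposited table gives gene counts. The submitters' processing notes name FastQC, cutadapt, STAR, featureCounts, DESeq2 and the mm10 build, without order or versions, and strand use and annotation are not given in the sources used here. The table is titled as normalized, but its values are whole numbers whose totals differ (24781070 to 36109975), with median-ratio size factors from 0.841 to 1.296, so they were treated as raw counts. Of values from 10 to 50, 79.5% to 84.0% were even, so a read pair often counts as 2. Replicates differed by more than counting noise in every pair (chi-square per degree of freedom at least 66.3). The floor of 3 counts covers counting error only, while SD and SE include the spread between libraries.

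Counts were fitted with edgeR 4.0.16 (R 4.3.3, quasi-likelihood F test, TMM scaling, all 12 libraries in 1 model, no block) over 12577 genes (mean count 10 or more), with Benjamini-Hochberg adjustment over all of them and a threshold of 0.05. CPM uses TMM-scaled totals, and SE was derived from the F statistic. Alternatives used DESeq2 1.42.0 and limma 3.58.1, other scalings, filters and pseudocounts (1 and 0.1), removal of a gene-length trend, the replicate block, and leaving out libraries. The fits were tested on simulated data. Gene identifiers were matched by symbol and position to GENCODE M21, whose ends agree for 98.4% of the table's rows.

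The titles number the replicates in every group. Deviations from group means correlated over 0.1 in all same-numbered pairs for Hdac2 ECKO and labelled Ezh2 ECKO alone (0.19, 0.43 and 0.13). With WT they did not (for Hdac2 ECKO −0.19, 0.11 and 0.10). The 0.43 was between the 2 libraries that stand apart, each numbered 2. Other-numbered pairs of these groups reached 0.21 (Hdac2 ECKO 1 with labelled Ezh2 ECKO 3) and 0.12 (Hdac2 ECKO 3 with labelled Ezh2 ECKO 1). Those with a library numbered 2 were at −0.30 to −0.19. These values therefore do not show that the numbers pair the samples.

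The members and gene lists were chosen with earlier results of these data known. Named genes are the members, the listed pathway genes that passed or had the smallest p in a comparison, the neighbours of Serpine2 within 1 Mb, and the 3 genes most correlated with a member. Other genes in the text were chosen after their values were seen. Of the 22 pathway genes past the count filter, 2 are not reported here.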

Additional observations from a re-analysis of the deposited data

How the results depend on the processing

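With 3 libraries a group, the depth was ample for 5 members and too low for Plau, and the spread between libraries limits the tests. Over 18 settings other than the one reported, Wdfy1 in Hdac2 ECKO against WT kept its direction in all and its call in 14 (log2 fold change 1.04 to 1.55, adjusted p 0.00189 to 0.16), and Serpine2 in beta-catenin GOF against WT ranged from 2.19 to 3.13 over 17. In the comparisons between groups, scaling by library size alone moved the median over all genes in Hdac2 ECKO against WT from 0.10 to 0.34 on the log2 scale. The cause of the changes below was not tested.

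Members past the threshold in Hdac2 ECKO against WT (1 as reported) were 2 with DESeq2, no filter, a minimum mean count of 50, quality weights or only the 2 groups, and 0 to 2 without 1 library (0 without the first or the second WT or the first or the third Hdac2 ECKO library, 2 without the third WT library). In labelled Ezh2 ECKO against WT (0) they were 1 with DESeq2, 1 with no filter, 3 with quality weights, 1 without both libraries that stand apart, and 0 to 1 without 1 library (1 without the second labelled Ezh2 ECKO library). Over all genes, 129 passed there as reported, and in the same order 1271, 1367, 3743, 2802 and 2328. In Hdac2 ECKO against WT 1157 of all genes passed as reported and 2477 with DESeq2. Nothing is therefore read about the genes from these changes, or from those of the lists below.

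Of the pathway list, with DESeq2 and with no filter, 5 and 5 passed in Hdac2 ECKO against WT (2 as reported), 6 and 4 in labelled Ezh2 ECKO against WT (0), and 1 and 1 in beta-catenin GOF against WT (0). Against Hdac2 ECKO, beta-catenin GOF had 1 and 4 (0), and against labelled Ezh2 ECKO 3 and 4 (0), with 1 under median-ratio scaling and 1 by library size alone. Hdac2 ECKO against labelled Ezh2 ECKO had 1 with no filter (0). Without 1 library the counts were 0 to 4 in Hdac2 ECKO against WT, 0 to 6 in labelled Ezh2 ECKO against WT (3 without the third WT and 6 without the second labelled Ezh2 ECKO library), 0 to 2 in beta-catenin GOF against Hdac2 ECKO (2 without the second Hdac2 ECKO library) and 0 to 5 for beta-catenin GOF against labelled Ezh2 ECKO (the 5 in the absence of the latter's second library). Without both libraries that stand apart they were 6 and 6 in Hdac2 ECKO and labelled Ezh2 ECKO against WT.

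Of the neighbours of Serpine2 (0 as reported), 1 passed with DESeq2, 2 with no filter and 3 without both libraries that stand apart in Hdac2 ECKO against WT, and 1 without both in labelled Ezh2 ECKO against WT. Without 1 library the counts were 0 to 1 in either.

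Of the beta-catenin response genes in Hdac2 ECKO against WT (3 as reported), 5 passed with DESeq2, 7 with no filter, 1 under median-ratio scaling, 5 by library size alone, 0 with the length trend removed, 6 without both libraries that stand apart, and 0 to 5 without 1 library. In labelled Ezh2 ECKO against WT (0) 1 passed with no filter, 4 without both, and 0 to 4 without 1 library. In beta-catenin GOF (0) DESeq2 and no filter passed 1 and 1 against WT, no filter passed 3 against Hdac2 ECKO, and DESeq2 and no filter passed 1 and 2 against labelled Ezh2 ECKO. Without 1 library the last 2 comparisons gave 0 to 1 each.

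With the replicate block, 4 of the pathway list passed in Hdac2 ECKO against WT, 3 in labelled Ezh2 ECKO against WT and 1 in beta-catenin GOF against labelled Ezh2 ECKO, 5 of the response genes passed in Hdac2 ECKO against WT, and Wdfy1 passed there with 1.27 (adjusted p = 0.019). The block changed no member's call and, in Hdac2 ECKO against labelled Ezh2 ECKO, no count.

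Signs turned in members whose values did not pass. Plat in Hdac2 ECKO against WT was 0.11 by library size alone, 0.10 with quality weights and 0.01 without both libraries that stand apart, and Serpine2 there was −0.14 and Serpini1 −0.24 with the length trend removed. Without 1 library, Serpini1 there ran from −0.36 to 0.37, Plat in labelled Ezh2 ECKO against WT from −0.10 to 0.49, Plat in beta-catenin GOF against labelled Ezh2 ECKO from −0.30 to 0.36 and Serpini1 in that comparison from −0.17 to 0.67. Plat in beta-catenin GOF against labelled Ezh2 ECKO was 0.00 by library size alone, 0.01 with limma at either pseudocount, 0.12 with the length trend removed and 0.01 with the replicate block.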
